A study of Mus musculus with 14 samples.

Results

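A group of 10 genes of the endoplasmic reticulum (ER) stress response was described across the 4 genotype groups of a mouse study of progerin and atherosclerosis. They were Hspa5, Hsp90b1, Xbp1, Atf4, Atf6, Ddit3, Trib3, Herpud1, Dnajb9 and Sdf2l1. They were taken by symbol from the count table, which held 22430 genes, and all 10 passed the filter on low counts that left 14269 genes to test. They were chosen by function, with earlier results of these data known.

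The ER is the compartment in which membrane and secreted proteins are folded. When unfolded proteins accumulate there, the sensors IRE1 (gene Ern1), PERK (Eif2ak3) and ATF6 start the unfolded protein response, which raises chaperones and degradation factors through XBP1 and ATF6 and slows translation while raising ATF4 through PERK. IRE1 splices Xbp1 mRNA, ATF6 is cut by proteases of the Golgi, and ATF4 is controlled largely at translation, so gene counts show the mRNA level and none of these activating steps. In the aorta, ER stress has been studied in endothelial cells, smooth muscle cells and lipid-laden macrophages of atherosclerotic plaques.

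The RNA came from the intima, the inner layer of the thoracic aorta, which was lysed by passing QIAzol through the lumen, and each library pooled 12 to 14 mice. All groups are labelled Apoe-/-, a genotype that makes mice prone to atherosclerosis. The wild-type control was Apoe-/-Lmna+/+ (4 libraries) and ubiquitous progerin was Apoe-/-LmnaG609G/G609G (3 libraries), in which all cell types that express Lmna can make progerin, the shortened form of lamin A found in Hutchinson-Gilford progeria. The lamin C-only control was Apoe-/-LmnaLCS/LCS (4 libraries), and VSMC progerin was Apoe-/-LmnaLCS/LCS SM22Cre (3 libraries), in which Cre driven by the SM22α promoter directs progerin to vascular smooth muscle cells (VSMCs). Both of the latter groups carry the LCS allele, so each progerin group was compared with its own control and the 2 comparisons share no library. Ages were not stated in the labels. Pools are separate sets of animals, and the p-values measure the spread between pools.

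Library totals ran from 27169784 to 35692385 estimated counts, and a member had between 119 and 19455 estimated counts in a library. Endothelial markers summed to between 18986 and 23375 CPM (counts scaled to a library total of 1000000, with trimmed mean of M-values, or TMM, factors) in every library, which fits the labelled tissue. Lmna counts do not distinguish the alleles: Lmna ran from 113 to 125 CPM in the wild-type control and from 115 to 121 CPM with ubiquitous progerin. It ran from 207 to 256 CPM with VSMC progerin, above the 126 to 142 CPM of the lamin C-only libraries. Counts of Apoe were present in all 14 libraries, from 44.5 to 72.1 CPM. No library is labelled with intact Apoe, and counts summed over a gene do not show whether its product is made, so the Apoe label could not be checked. Mitochondrially encoded genes took 4.60 to 5.42% of counts in the wild-type control and 7.29 to 8.22% in ubiquitous progerin, and 3.53 to 4.61% in the lamin C-only libraries, against 11.5 to 12.07% in VSMC progerin. Because these are bulk libraries, fewer cells of a type and less RNA per cell cannot be told apart.

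Of the 10 genes, 4 rose and none fell in ubiquitous progerin, namely Xbp1, Sdf2l1, Hspa5 and Dnajb9. In VSMC progerin, Sdf2l1 and Hspa5 rose and Trib3 and Herpud1 fell. The threshold for a call was an adjusted p under 0.05 in edgeR's quasi-likelihood test, with adjustment by Benjamini-Hochberg over all genes tested. By that rule 54.6% of all genes were called in ubiquitous progerin (26.3% higher and 28.3% lower) and 42.0% in VSMC progerin (19.0% higher and 23.0% lower), so 4 of 10 called members lies near the background in both comparisons. The members' median log2 fold change was 0.03 in ubiquitous progerin and 0.07 in VSMC progerin, beside -0.00 and -0.03 over all genes. No member was called between the 2 controls by edgeR, where 0.175% of all genes were called (0.0911% higher and 0.0841% lower), and 1 member had an unadjusted p under 0.05.

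**Figure D1:**
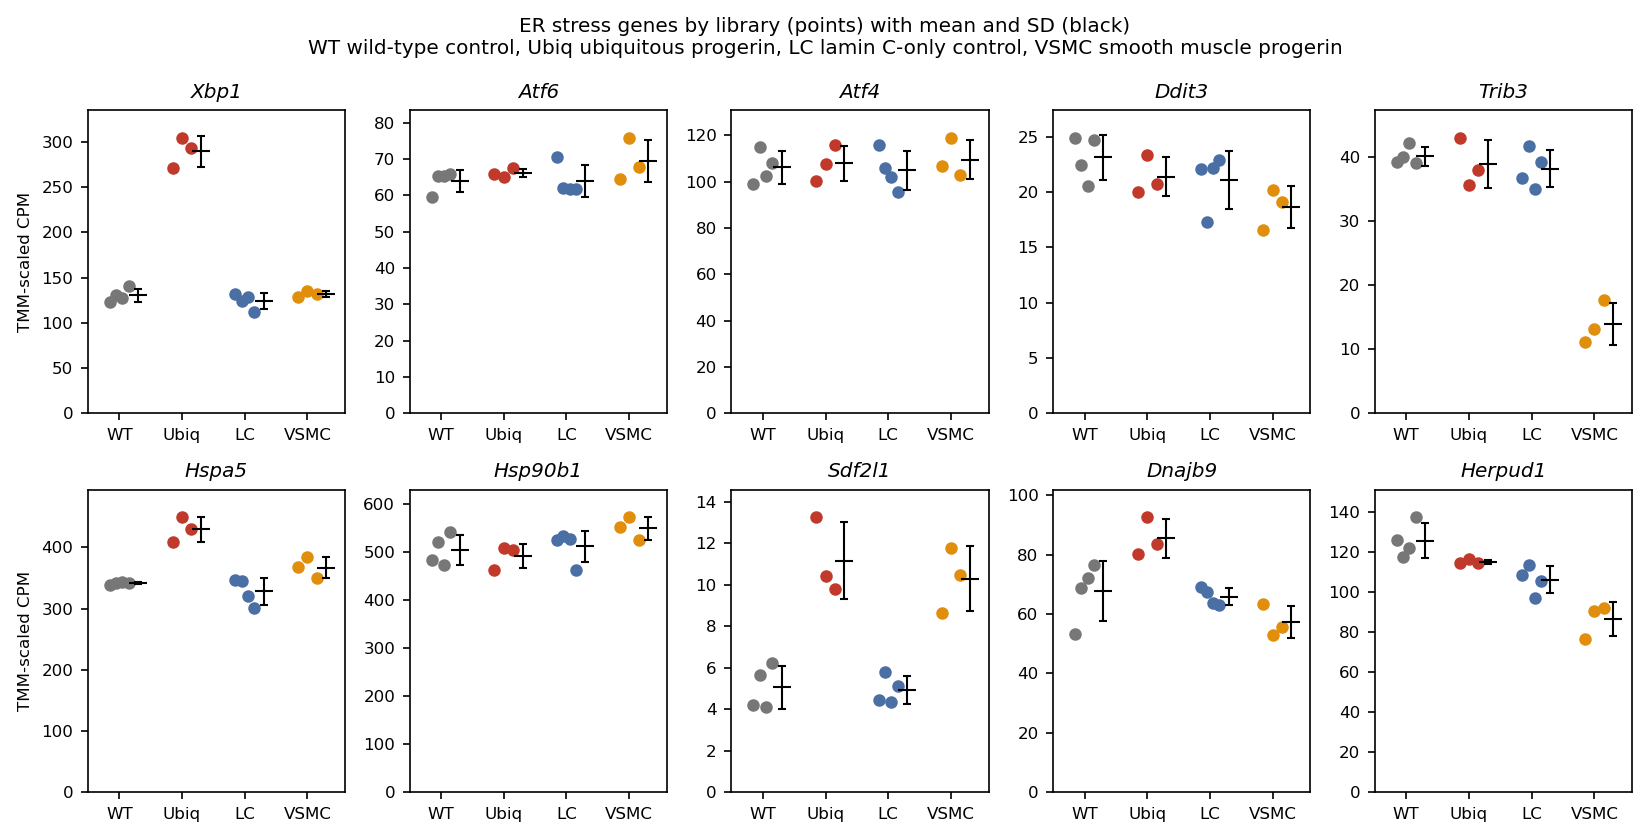
Level of each of the 10 genes in every library, in TMM-scaled CPM on an axis for each gene, by genotype group; points are libraries (pools of mice), black marks give the group mean and SD, WT and LC are the wild-type and lamin C-only controls, and Ubiq and VSMC are the 2 progerin groups. Xbp1 stands apart only in the ubiquitous progerin libraries (271 to 305 CPM), Trib3 only in the VSMC progerin libraries (11.1 to 17.6 CPM), and Sdf2l1 is high in both progerin groups.

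Promoter sequences were searched for the letters of elements known from the stress response. RefSeq promoters of 300 bases (250 before and 50 after the start, GRCm38.p6) were found for 9 of the 10 genes, all but Atf6. Both strands were searched for 4 motifs: the ER stress element (ERSE, CCAAT and CCACG with 9 free bases between them), which binds ATF6 with NF-Y and also XBP1; ERSE-II (ATTGG and CCACG with 1 free base between them); the unfolded protein response element (TGACGTGG); and the C/EBP-ATF composite site (TGATGNAA), the kind bound by ATF4 and CHOP. No other motif was searched, and a match is a description of the letters. Stretches are shown for the called members that held a match, and for Hsp90b1, which was added after its values were seen because it holds 2 ERSEs and was not called. Capitals mark the matches and each stretch is written 5′ to 3′ on the gene's own strand.
Hspa5, chr2:34772020-34772048, plus strand: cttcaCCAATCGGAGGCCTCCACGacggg
Hsp90b1, chr10:86705518-86705671, minus strand: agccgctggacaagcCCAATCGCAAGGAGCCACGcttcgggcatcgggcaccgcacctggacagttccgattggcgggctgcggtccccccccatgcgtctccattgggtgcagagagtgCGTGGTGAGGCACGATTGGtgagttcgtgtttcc
Herpud1, chr8:94386302-94386402, plus strand: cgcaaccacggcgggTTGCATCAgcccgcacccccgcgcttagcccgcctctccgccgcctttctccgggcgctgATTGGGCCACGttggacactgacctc
Trib3, chr2:152344028-152344057, minus strand: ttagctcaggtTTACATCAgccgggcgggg
The starts of the 2 annotations differ: all 29 bases of the Hspa5 stretch lie before the RefSeq start but inside the GENCODE gene whose position is given with its values, and 5 of the 30 bases of the Trib3 stretch lie inside the GENCODE gene. Hspa5 has an ERSE, and Hsp90b1 has one as written and one as its reverse complement. Herpud1 has an ERSE-II and, as its reverse complement, a composite site. Trib3 has a composite site, also as its reverse complement, which lies just after the RefSeq start and before the start of the GENCODE gene. An ERSE occurred in 39 of 32851 promoters of the same length (0.119%), an ERSE-II in 12 (0.0365%), the unfolded protein response element in 222 (0.676%) and a composite site in 1304 (3.97%). The promoters of Xbp1, Atf4, Ddit3, Dnajb9 and Sdf2l1 held none of the 4 motifs in these 300 bases.

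Among the transcription factors, Xbp1 (ENSMUSG00000020484, chr11:5520659-5525893, GRCm38) was the one that changed. XBP1 is the factor made active when IRE1 splices its mRNA. It measured 123, 130.4, 127 and 140.4 CPM in the 4 libraries of the wild-type control and 271, 305 and 293 CPM in the 3 ubiquitous progerin libraries. Every ubiquitous progerin library was above every control library, with no overlap. The log2 fold change was 1.15 ± 0.064 (SE), with an edgeR adjusted p of 2.1e-11. In the lamin C-only control Xbp1 measured 132, 124, 129 and 112 CPM, and in VSMC progerin 129, 136 and 131 CPM. Those 2 groups overlapped, with a log2 fold change of 0.09 (95% interval -0.05 to 0.22). The 2 progerin effects differed by 1.07 ± 0.091 on the log2 scale (edgeR adjusted p = 1.4e-08). Ordered by mean, ubiquitous progerin (290 ± 17.0 CPM, SD, n = 3) stood above VSMC progerin (132 ± 3.46, n = 3), the wild-type control (130.4 ± 7.26, n = 4) and the lamin C-only control (124 ± 8.64, n = 4), and the ranges of the last 3 overlapped.

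Xbp1 is also a factor of antibody-secreting plasma cells, so markers of B and plasma cells were read beside it. Of 8 markers 6 could be tested. In ubiquitous progerin Cd79b rose (log2 fold change 3.62, edgeR adjusted p = 0.0013) and Sdc1 fell (-0.78). Their summed level was 117 to 130 CPM in the wild-type control and 69.9 to 81.6 CPM in ubiquitous progerin, and in both it was nearly all Sdc1 (means of 119 and 69.4 CPM), which other cell types also express. The means of Ighm (2.44 and 3.83 CPM) and Jchain (0.392 and 0.635 CPM) were higher in ubiquitous progerin but were not called. In VSMC progerin, where Xbp1 was not called, 5 of the 6 rose and none fell, beside 19.0% and 23.0% of all genes. Ighm went from 2.03 to 16.8 CPM there. The sum went from 112 to 130 CPM in the lamin C-only control to 411 to 469 CPM in VSMC progerin. It was again nearly all Sdc1, with means of 117 and 425 CPM. Mzb1, which was too low to test, was at 0 in all VSMC progerin libraries and at most at 0.034 CPM elsewhere. The part of these cells in the level of Xbp1 was not tested.

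Markers of other cell types were read as well. Of all genes 26.3% rose and 28.3% fell in ubiquitous progerin, and 19.0% rose and 23.0% fell in VSMC progerin. The smooth muscle counts, and those of adipocyte and T cell markers in ubiquitous progerin, lie near these shares. All 11 macrophage markers rose in each progerin group, from summed levels of 91.6 to 171 CPM to 1156 to 1780 CPM in ubiquitous progerin and from 84.2 to 282 CPM to 828 to 991 CPM in VSMC progerin. Smooth muscle markers summed to 492 to 830.5 CPM in the wild-type control and 936 to 983 CPM in ubiquitous progerin, where 1 of 8 rose and 3 fell. The higher sum came from Tagln, the 1 that rose, with means of 258 and 774 CPM. Acta2 (213 to 92.6 CPM), Myh11 (14.7 to 5.90 CPM) and Smtn (95.5 to 60.9 CPM) were the 3 that fell. The smooth muscle markers summed to 398 to 561 CPM in the lamin C-only libraries, against 319 to 383 CPM in VSMC progerin, where none rose and 3 of 8 fell. Endothelial markers summed to 21373 to 23375 CPM in the wild-type control and 18986 to 20079 CPM in ubiquitous progerin (2 of 8 rose and 4 fell), and to 20598 to 22566 CPM in the lamin C-only libraries, against 20066 to 20965 CPM in VSMC progerin (3 rose and 4 fell). Adipocyte markers summed to 24.0 to 32.4 CPM in the wild-type control and 32.9 to 79.1 CPM in ubiquitous progerin (1 of 5 rose), and to 17.3 to 108 CPM in the lamin C-only libraries, against 130 to 216 CPM in VSMC progerin (4 of 5 rose). T cell markers were low in every library. They summed to 3.65 to 4.55 CPM in the wild-type control and 7.08 to 16.1 CPM in ubiquitous progerin (1 of 5 tested rose). In the lamin C-only libraries the sum was 2.43 to 5.39 CPM, against 7.65 to 10.4 CPM in VSMC progerin (2 of 5 tested rose). Fibroblast markers are given with the folding genes. The part of these cell types in the members' values was not tested.

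Atf6 (ENSMUSG00000026663, chr1:170704674-170867771), a sensor that is itself a transcription factor, was not called in either progerin group. It ran from 59.6 to 65.8 CPM in the wild-type control and from 65.1 to 67.4 CPM in ubiquitous progerin (log2 fold change 0.05, interval -0.10 to 0.19), and from 61.7 to 70.7 CPM in the lamin C-only control and from 64.5 to 75.9 CPM in VSMC progerin (0.12, interval -0.03 to 0.26). Atf4 (ENSMUSG00000042406, chr15:80255184-80257541), the factor of the PERK arm and of other kinases of eIF2, had group means of 106, 108, 105 and 109.6 CPM for wild-type, ubiquitous, lamin C-only and VSMC libraries in that order. Its log2 fold change was 0.02 (interval -0.13 to 0.18) in ubiquitous progerin and 0.06 (interval -0.09 to 0.22) in VSMC progerin. For both genes the groups overlapped, and the highest interval bound was 0.26 on the log2 scale.

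Ddit3 (ENSMUSG00000025408, chr10:127290774-127296288) encodes CHOP, the factor tied to cell death under lasting ER stress. It measured 24.9, 22.4, 20.6 and 24.7 CPM in the wild-type control and 20.02, 23.4 and 20.8 CPM in ubiquitous progerin. It measured 22.1, 17.3, 22.1 and 22.9 CPM in the lamin C-only libraries, against 16.5, 20.2 and 19.1 CPM in VSMC progerin. The groups overlapped in both comparisons, with log2 fold changes of -0.11 (interval -0.35 to 0.12) and -0.18 (interval -0.41 to 0.05). Ddit3 is uncertain because it shares exons with a second annotated model on its strand, which held 0 to 11.3 estimated counts per library, and overlaps Mars1 on the other strand, and no source used here gives the strand setting of the counting.

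Trib3 (ENSMUSG00000032715, chr2:152337422-152344032) had the largest decrease among the members. It encodes a pseudokinase that is a target of ATF4 and CHOP and binds the kinase AKT. It measured 36.8, 41.8, 35.0 and 39.3 CPM in the lamin C-only libraries, against 11.1, 13.1 and 17.6 CPM in VSMC progerin. Each VSMC progerin library was below each control library, with a log2 fold change of -1.45 ± 0.118 (SE; edgeR adjusted p = 7e-09). In the wild-type control it measured 39.2, 40.0, 42.2 and 39.1 CPM and in ubiquitous progerin 43.0, 35.6 and 38.0 CPM, which overlapped (log2 fold change -0.05, interval -0.28 to 0.19). The 2 effects differed by 1.41 ± 0.16 (edgeR adjusted p = 6.4e-07). The 3 groups other than VSMC progerin had means of 38.2 to 40.1 CPM, and their ranges overlapped.

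Hspa5 (ENSMUSG00000026864, chr2:34771970-34777547), which encodes BiP, the chaperone that holds the sensors inactive when bound to them, rose in both progerin groups. It measured 339, 342, 343 and 343 CPM in the wild-type control and 409, 449 and 430 CPM in ubiquitous progerin, where all 3 libraries exceeded every control library. Its log2 fold change was 0.33 ± 0.059 (SE; edgeR adjusted p = 7.6e-05). In the lamin C-only control it measured 347, 346, 321 and 300.3 CPM and in VSMC progerin 368, 384 and 350.0 CPM. The groups were apart, but by little, and the log2 fold change of 0.16 ± 0.059 (edgeR adjusted p = 0.034) fell short of the threshold under 6 of 16 alternative settings, among them leaving out VSMC progerin pool 2 (0.12, adjusted p = 0.15) or lamin C-only control pool 3 (0.15, adjusted p = 0.078) or pool 4 (0.12, adjusted p = 0.12). The effects in the 2 models differed by 0.17 (interval -0.00 to 0.34; edgeR adjusted p = 0.10), which did not pass the test.

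Sdf2l1 (ENSMUSG00000022769, chr16:17130138-17132383), a small ER protein that works with BiP, rose in both models. It measured 4.22, 5.64, 4.13 and 6.25 CPM in the wild-type control and 13.3, 10.4 and 9.81 CPM in ubiquitous progerin (log2 fold change 1.14 ± 0.182, SE; edgeR adjusted p = 2.4e-05). It measured 4.44, 5.81, 4.34 and 5.15 CPM in the lamin C-only libraries, against 8.63, 11.8 and 10.5 CPM in VSMC progerin (1.06 ± 0.182; edgeR adjusted p = 8.8e-05). In both models every progerin library exceeded every control library. The difference of the effects was 0.08, with an interval of -0.46 to 0.62, so a moderate difference in either direction could not be detected.

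Hsp90b1 (ENSMUSG00000020048, chr10:86690209-86705509) encodes GRP94, the ER member of the HSP90 chaperones, and is the member with the highest level per length, at 125 CPM per kb of exon in the wild-type control against 80.7 for Hspa5 and 4.57 for Sdf2l1. It measured 484, 520.3, 473 and 541 CPM in the wild-type control and 462, 509 and 504 CPM in ubiquitous progerin, which overlapped (log2 fold change -0.04, interval -0.17 to 0.10). It measured 524, 533, 527 and 462 CPM in the lamin C-only libraries, against 551, 572 and 525 CPM in VSMC progerin (0.10, interval -0.03 to 0.24). Its promoter holds 2 ERSEs, as printed above, and it was not called in either comparison. The activity of the promoter was not tested.

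Dnajb9 (ENSMUSG00000014905, chr12:44205559-44210326) encodes ERdj4, a co-chaperone of BiP that takes part in ER-associated degradation and in restraining IRE1. It measured 53.3, 68.7, 72.2 and 76.3 CPM in the wild-type control and 80.2, 92.6 and 83.5 CPM in ubiquitous progerin, with no overlap (log2 fold change 0.34 ± 0.096, SE; edgeR adjusted p = 0.0059). Wild-type control pool 1 was the low control library, and without it the value was 0.24 (adjusted p = 0.011). In the lamin C-only control it measured 69.0, 67.4, 63.9 and 63.2 CPM and in VSMC progerin 63.3, 53.0 and 55.5 CPM, where the log2 fold change of -0.20 (interval -0.41 to -0.00; edgeR adjusted p = 0.10) was not called. The effects in the 2 models differed by 0.54 ± 0.136 (edgeR adjusted p = 0.0033), or by 0.44 (adjusted p = 0.0017) without wild-type control pool 1.

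Herpud1 (ENSMUSG00000031770, chr8:94386438-94395377) encodes an ER membrane protein that organises the degradation complex. It measured 109, 113, 97.3 and 106 CPM in the lamin C-only libraries, against 76.7, 90.5 and 92.1 CPM in VSMC progerin, all 3 lower than every control library. The log2 fold change was -0.30 ± 0.072 (SE; edgeR adjusted p = 0.0022), and it was -0.20 (adjusted p = 0.037) without VSMC progerin pool 1, the lowest library. In the wild-type control it measured 126, 118, 122 and 137 CPM and in ubiquitous progerin 115, 116 and 115 CPM. Those groups were apart as well, but the log2 fold change of -0.13 (interval -0.27 to 0.02; edgeR adjusted p = 0.14) was not called. Herpud1 was also the member with an unadjusted p under 0.05 between the controls (0.00138), where the lamin C-only control was lower by -0.24 on the log2 scale and the libraries did not overlap. Adjusted over all genes with edgeR that p was 0.21, and 4.97% of all genes had ranges that did not overlap in this comparison. The effects in the 2 progerin models did not differ past the test (0.17, interval -0.04 to 0.38; edgeR adjusted p = 0.18).

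Counted by ranges, 5 of the 10 members did not overlap between ubiquitous progerin and its control, against 56.4% of all genes, and 4 of 10 between VSMC progerin and its control, against 45.5%. In the direct test of the 2 effects, 3 of 10 members were called, all with the higher log2 fold change in ubiquitous progerin (Xbp1, Trib3 and Dnajb9), where 44.2% of all genes were called (22.4% higher and 21.8% lower).

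**Figure D2:**
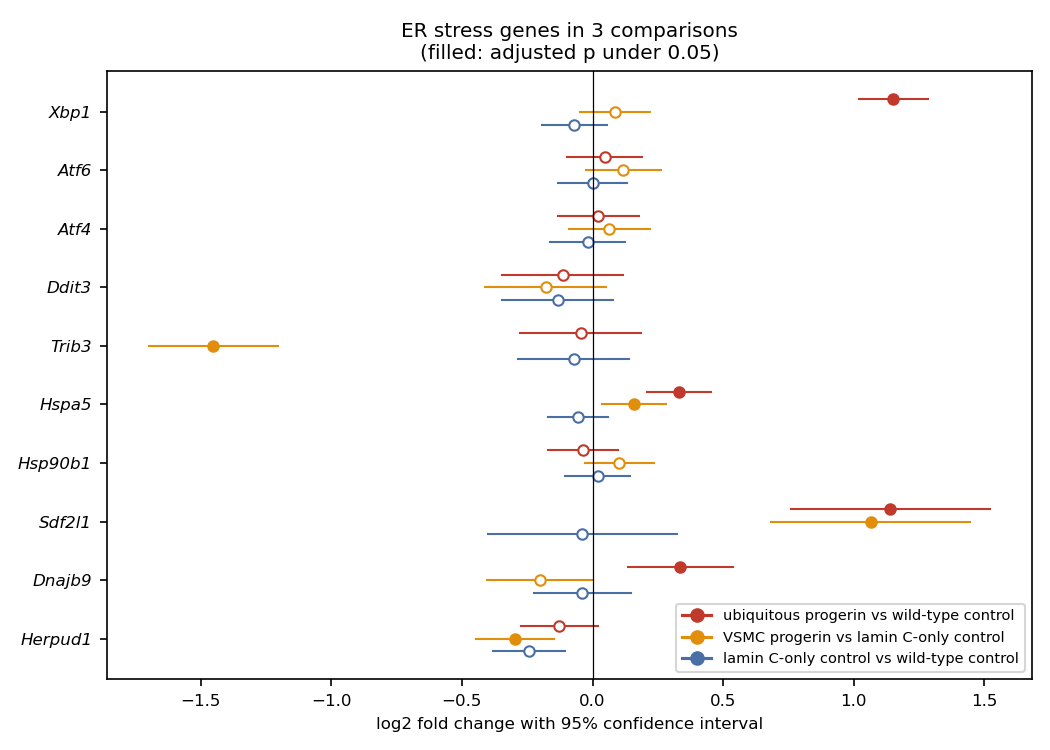
Log2 fold change of each member in the comparisons, with 95% intervals from edgeR; filled points were called at an adjusted p under 0.05. The intervals of Xbp1 and Trib3 in the 2 progerin comparisons are far apart (1.15 against 0.09, and -0.05 against -1.45), while those of Sdf2l1 overlap (1.14 and 1.06).

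The rest of the pathway was read from 6 lists holding 78 other genes. In ubiquitous progerin, 8 of 17 ER chaperones and folding enzymes fell and 1 rose, with a median log2 fold change of -0.13, where 26.3% of all genes rose and 28.3% fell. Pdia4, a disulfide isomerase, fell from 87.7 ± 2.01 CPM (SD, n = 4) to 58.1 ± 2.26 (n = 3; log2 fold change -0.60 ± 0.056, edgeR adjusted p = 2.4e-08). Ero1a, an oxidase that recharges the isomerases, fell from 53.7 ± 2.63 to 33.8 ± 1.68 CPM (-0.67 ± 0.067, edgeR adjusted p = 6.6e-08). The chaperone Hyou1 (-0.49) and the disulfide reductase Dnajc10 (-0.37) fell as well. These decreases stood beside the rise of Hspa5 and Sdf2l1 in the same libraries.

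In VSMC progerin the folding list went the other way: 9 of 17 rose and none fell, with a median log2 fold change of 0.17, where 19.0% of all genes rose and 23.0% fell. Without VSMC progerin pool 3 the counts were 8 and 1, and with scaling by library totals only they were 7 and 3. Over all alternatives 7 to 11 genes of the list rose. Pdia4 rose from 91.3 ± 3.42 CPM (n = 4) to 116 ± 3.72 (n = 3; 0.34 ± 0.054, edgeR adjusted p = 3.5e-05), and the proline isomerase Ppib rose from 195 ± 10.8 to 258 ± 8.33 CPM (0.40 ± 0.056, edgeR adjusted p = 8.6e-06). The isomerase Pdia3 (0.26) and the calcium-binding chaperone Calr (0.28) also rose. In the test of the difference, 12 of 17 were lower in ubiquitous progerin relative to VSMC progerin and 1 was higher, with a median difference of -0.31 against 0.00 for all genes, of which 22.4% were higher and 21.8% lower. The count of lower genes was 9 to 12 over the alternatives, lowest with scaling by library totals only. Pdia4 (-0.94), Hyou1 (-0.65), Creld2 (-0.84) and Ero1a (-0.54) had the smallest p-values. Ppib was the gene of the list that rose in both models, and Pdia4 and Creld2 fell in one and rose in the other. Fibroblast markers summed to 1817 to 2019 CPM in VSMC progerin against 1098 to 1336 CPM in its control, where 5 of 8 rose and none fell. In ubiquitous progerin they summed to 892 to 936 CPM against 1138 to 1257 CPM, where 1 of 8 rose and 2 fell. Their median log2 fold change there was 0.31, so the sum fell while the median marker was higher. Cd34 and Pi16 made up most of the sum in every group. Both were among the 5 that rose in VSMC progerin (means of 717 to 989 CPM and 230 to 698 CPM), and they were the 2 that fell in ubiquitous progerin. The means of Pdgfra, Dcn and Dpep1 were lower in VSMC progerin than in its control, but these genes were not called. The part of fibroblasts in the values of the folding list was not tested.

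**Figure D3:**
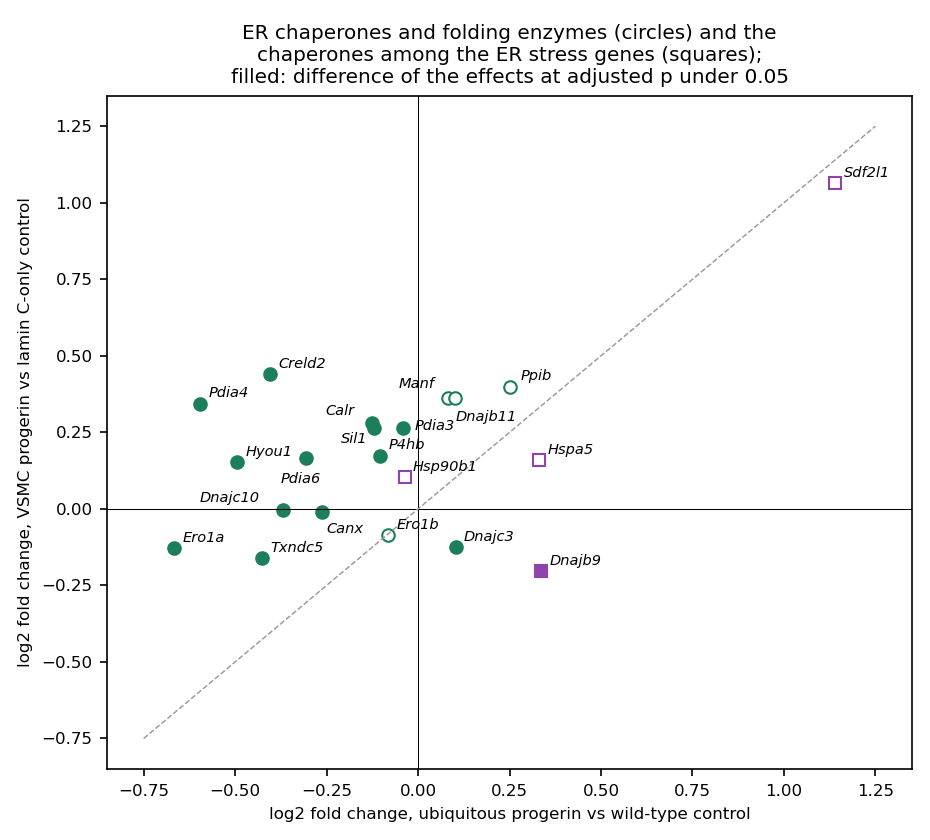
Log2 fold change in ubiquitous progerin (horizontal) against that in VSMC progerin (vertical), each relative to its own control, for the 17 folding genes (circles) and the 4 chaperones among the members (squares); the dashed line marks equal changes. Filled symbols passed the test of the difference between the effects, and 12 of the 17 circles lie above the line and passed it.

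The sensors and the proteases that cut ATF6 fell or did not pass in ubiquitous progerin, with 3 of 5 lower. Of all genes 28.3% fell and 26.3% rose in that comparison. The site-1 protease gene Mbtps1 fell by 0.32 on the log2 scale, Atf6b, the relative of ATF6, by 0.41, and Ern1, which encodes the enzyme that splices Xbp1, by 0.30. Ern1 went from 156 ± 10.7 CPM to 126 ± 2.62 CPM while Xbp1 rose in those libraries. In VSMC progerin Ern1 fell from 147 ± 18.7 to 109 ± 4.28 CPM (-0.42, edgeR adjusted p = 0.00025) and Mbtps1 by 0.17, whereas Atf6b rose by 0.20 (edgeR adjusted p = 0.034). These counts of 2 lower and 1 higher of 5 lie near the background, where 23.0% of all genes fell and 19.0% rose. The rise of Atf6b did not pass without lamin C-only control pool 1, 3 or 4 or VSMC progerin pool 2 or 3, and the count of sensor genes that fell was 1 without VSMC progerin pool 1 or 2.

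In the ER-associated degradation and translocation list, 7 of 16 rose and 2 fell in ubiquitous progerin, and 4 rose and 4 fell in VSMC progerin. Of all genes 26.3% rose and 28.3% fell in the first comparison and 19.0% rose and 23.0% fell in the second, so the VSMC progerin counts lie near the background. The counts of the lists that follow are to be read against the same shares. Without ubiquitous progerin pool 2 the first count was 4, and without VSMC progerin pool 1 the last was 2. Selenos, a selenoprotein of the retrotranslocation complex, went from 27.8 ± 1.91 to 58.0 ± 8.57 CPM in ubiquitous progerin (log2 fold change 1.06 ± 0.105, edgeR adjusted p = 4.8e-08) and was 26.6 ± 3.28 and 27.8 ± 1.98 CPM in the other pair of groups, and the difference of effects was 0.99 (edgeR adjusted p = 2e-05). The translocon subunit Sec61a1 fell in ubiquitous progerin (-0.26) and rose in VSMC progerin (0.30), where Sec61b also rose (0.73, edgeR adjusted p = 2.1e-05). Edem1, a lectin of the degradation pathway, and Serp1 rose in both, and Edem3, Derl1 and Os9 rose in ubiquitous progerin and fell in VSMC progerin.

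Of 20 ATF4 targets for amino acid supply and tRNA charging, 10 rose and 3 fell in ubiquitous progerin, and 6 rose and 2 fell in VSMC progerin (1 fell without lamin C-only control pool 2 or 4 or VSMC progerin pool 1 or 3). Wars (-0.58, edgeR adjusted p = 6.2e-06) and Shmt2 (-0.67, edgeR adjusted p = 3.5e-05), among the genes with the smallest p there, fell in ubiquitous progerin. Asns, Psat1 and Slc7a11, which encode asparagine synthetase, a serine synthesis enzyme and the cystine transporter, rose in both (named after their values were seen). These risers were low, with group means of at most 3.40 CPM. Slc7a11 was low in every control library, at most at 0.577 CPM, and reached 1.82 to 3.58 CPM in ubiquitous progerin. Cth, which makes cysteine from cystathionine, went from 0.421 ± 0.0985 to 6.28 ± 0.769 CPM in ubiquitous progerin (log2 fold change 3.89 ± 0.547, edgeR adjusted p = 5.1e-06). In VSMC progerin Cth ran from 0 to 0.50 CPM. Aldh18a1, the first enzyme of proline synthesis, fell from 8.51 ± 1.71 to 3.67 ± 0.736 CPM in ubiquitous progerin and rose from 9.97 ± 0.378 to 16.9 ± 1.88 CPM in VSMC progerin, a difference of -1.97 (edgeR adjusted p = 9.2e-07). Pck2 went the opposite way, at 0.74 (edgeR adjusted p = 2e-06). Atf4 itself was not called in these libraries.

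Among 15 stress genes downstream of ATF4 and CHOP, 14 were tested (Fgf21 was too low), and 5 rose and 3 fell in ubiquitous progerin. Of all genes 26.3% rose and 28.3% fell there. Ddit4, an inhibitor of mTORC1, went from 146 ± 41.0 to 715 ± 49.6 CPM (log2 fold change 2.29 ± 0.223, edgeR adjusted p = 5.8e-06), and Ppp1r15a, the stress-induced partner of the eIF2 phosphatase, from 95.8 ± 4.50 to 135 ± 4.46 CPM (0.49, edgeR adjusted p = 1.9e-06). In VSMC progerin 3 rose and 2 fell, which lies near the background, where 19.0% of all genes rose and 23.0% fell. Cebpb, a partner of CHOP, rose in both models (1.85 and 1.80). Nupr1, a stress-induced chromatin protein, fell from 182 ± 12.6 to 58.3 ± 10.2 CPM in ubiquitous progerin and rose from 180 ± 15.7 to 299 ± 50.9 CPM in VSMC progerin, and the difference of effects was -2.38 ± 0.178 (edgeR adjusted p = 1e-07). Bcl2l11, which encodes the cell death protein BIM, rose in ubiquitous progerin and fell in VSMC progerin, and Vldlr fell in VSMC progerin (-1.13). The last list held the eIF2 kinase genes Eif2ak1, Eif2ak2 and Eif2ak4, Eif2s1, which encodes the eIF2 subunit they phosphorylate, and Ppp1r15b, a partner of the eIF2 phosphatase. Of these 5, Eif2ak1 (0.29) and Eif2ak4 (0.43) rose in ubiquitous progerin and Eif2s1 (0.33) and Eif2ak2 (0.32) in VSMC progerin. In none of the 6 lists was a gene called between the controls by edgeR, where 6 list genes had an unadjusted p under 0.05, and DESeq2 called 1 folding gene lower.

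**Figure D4:**
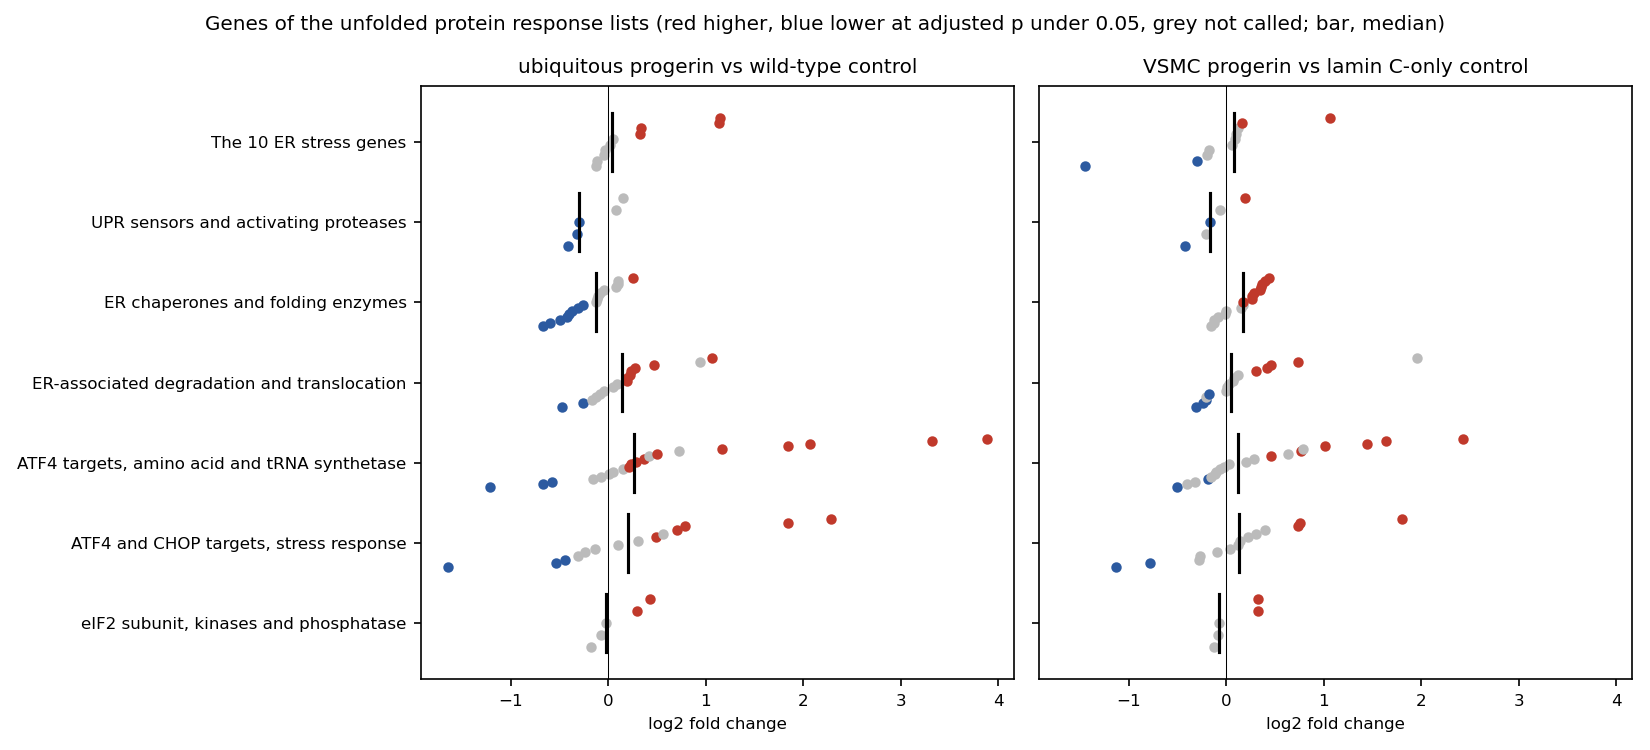
Log2 fold change of the genes of each list in ubiquitous progerin (left) and VSMC progerin (right), each relative to its own control; points are genes, red where called higher and blue where called lower, and the bar marks the median. The folding list lies mostly below 0 on the left (median -0.13) and mostly above 0 on the right (median 0.17).

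The genes most like Xbp1 and Trib3 across the 14 libraries were found from the root mean square difference of log2 CPM, each gene centred on its own mean. For Xbp1 these were Mocs1 (0.103), Ankrd44 (0.11), Gimap6 (0.111), Pi4k2a (0.114) and Sharpin (0.115). For Trib3 they were Cd24a (0.123), Cited2 (0.123), Selenbp1 (0.125), Tef (0.136) and Wnk4 (0.16). None of these is in the pathway lists, and the values are a description of likeness over libraries that also carry the group differences.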

How the data were processed

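The authors deposited RSEM estimated counts per gene, made per the submitters' processing notes with Trim Galore 0.6.10, cutadapt 4.1, STAR 2.7.10b and RSEM 1.2.28 on GRCm38. They also deposited log2 values from limma voom (limma version not given), used only as an alternative. The sources used here give no annotation release, strand setting or filters. RSEM divides reads between overlapping genes by a model. Polyadenylated RNA (100 ng) was made into directional libraries, per the labels' protocols.

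Estimated counts were rounded. Genes were kept with filterByExpr (at least 10 counts, a total of at least 15, and 0.7 as the smallest group's share), scaled by TMM and tested with edgeR 4.0.16 (R 4.3.3), quasi-likelihood and robust, in 1 fit of 14 libraries with a mean per genotype. P-values were adjusted by Benjamini-Hochberg over all 14269 genes, and calls needed an adjusted p under 0.05. SEs came from the log2 fold change and F, and a prior count of 2 entered log2 CPM. Totals of 27169784 to 35692385 estimated counts set the precision, and intervals do not cover errors of read assignment. No library was a repeat of another (chi-square per degree of freedom of 9.54 to 37.9 within groups). Alternatives were DESeq2 1.42.0, limma-voom (limma 3.58.1), the deposited log2 values, other scalings, no filter, no mitochondrial genes, only the groups compared, a block by pool number and leaving out each library. The steps were tested on simulated counts.

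All 10 members are named in every comparison. From each list and comparison, up to 4 called genes with the smallest p are named. The called member with the largest change in each progerin comparison gets its 5 nearest genes. Some genes the rule took are not described. The value of 1 cell type marker is not reported here. The members and lists were chosen with earlier results of these data known, and any gene named outside that rule is either marked as named after its values were seen or comes from a count of 5 or fewer. Gene positions are those of GENCODE M21.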

Additional observations from a re-analysis of the deposited data

Results flagged for a closer look

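In 4 of the 20 sets of 4 control libraries tested (10 genes in each of 2 control groups), the highest or lowest library stood apart from the nearest of the others by a larger share of the group's range than Dixon's critical value for 4 samples, and chance flags about 1 in 20. Hsp90b1 was low in lamin C-only control pool 4 (462 CPM, ratio 0.877). Atf6 was low in wild-type control pool 1 (59.6 CPM, ratio 0.901) and high in lamin C-only control pool 1 (70.7 CPM, ratio 0.98). Ddit3 was low in lamin C-only control pool 2 (17.3 CPM, ratio 0.864). None of these genes was called in a progerin comparison.

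The members Xbp1, Trib3 and Dnajb9 changed differently in the 2 progerin models by the direct test with edgeR. The effect in ubiquitous progerin minus that in VSMC progerin was 1.065 on the log2 scale for Xbp1, 1.406 for Trib3 and 0.5393 for Dnajb9. Xbp1 rose in ubiquitous progerin, Trib3 fell in VSMC progerin, and Dnajb9 rose in ubiquitous progerin and was lower but not called in VSMC progerin.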

How the results depend on the processing

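The calls of Xbp1, Sdf2l1, Hspa5 and Dnajb9 in ubiquitous progerin and of Trib3, Sdf2l1 and Herpud1 in VSMC progerin held in all 16 alternatives run for each, and Xbp1, Trib3 and Dnajb9 held in all 22 run for the difference of effects. Log2 fold changes ran from 0.24 to 0.40 for Dnajb9 in ubiquitous progerin, and from -1.66 to -1.29 for Trib3 and -0.38 to -0.20 for Herpud1 in VSMC progerin. Scaling by library totals only gave 5 members in the difference of effects rather than 3, adding Hspa5 (0.24) and Herpud1 (0.24). It also called Dnajb9 lower in VSMC progerin (-0.28, adjusted p = 0.023), ended the call of Hspa5 there (0.08, adjusted p = 0.25), and moved the median of all genes there to -0.11 and the genes called to 2272 higher and 4435 lower from 2705 and 3283. Hspa5 in VSMC progerin also missed the threshold with no filter (0.15, adjusted p = 0.067), and its difference of effects passed without lamin C-only control pool 4 (0.21, adjusted p = 0.041). Genes called between the controls were 25, and 103 with DESeq2, 1 with the deposited log2 values, 40 with no filter, 16 with only the groups compared and 8 to 45 with 1 library left out. No member was called there in any of these. Pool numbers did not pair the libraries (correlation of same-numbered deviations -0.0551 to 0.0227). With the replicate block by pool number, 7536, 5806, 32 and 6253 genes were called in ubiquitous progerin, VSMC progerin, the controls and the difference, and Hspa5 in VSMC progerin was not called (0.14, adjusted p = 0.064). The causes were not tested. Alternatives for the list counts were chosen after seeing the data.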
